A study of Mus musculus with 10 samples.

Results

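Epcam, the genes of the membrane serine proteases matriptase (St14) and prostasin (Prss8), and the genes of their inhibitors Spint1 and Spint2 were followed across 5 mouse mammary tumour cell lines. The members were taken by gene symbol: a probe set belonged when its single symbol was 1 of these 5. The rule gave 7 probe sets for the 5 genes, out of 18193 genes with a single symbol on the array: 2 each for Epcam and Spint2 and 1 each for Spint1, St14 and Prss8. All 7 passed the filter on low values.

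The epithelial line, E, came from a mammary adenocarcinoma of a female FVB/N-TgN(MMTVneu)202Mul mouse, whose neu (Erbb2) transgene is driven by the mouse mammary tumour virus promoter. The mesenchymal lines, called M1 to M4, were each set up from 1 relapsed tumour of a female FVB/N mouse that had been injected with E cells. All 4 therefore descend from the 1 epithelial line they are compared with. Each line has 2 arrays, and all cells were grown in RPMI with serum and harvested near confluence. No label gives the age of the mice or says whether a line's arrays hold separate cultures, so p-values measure only the spread between these arrays, which may be technical.

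EpCAM is a homophilic adhesion protein of the lateral membrane of epithelial cells, where it binds claudins and keeps them from degradation. Matriptase is a transmembrane serine protease that cleaves EpCAM, and it activates prostasin, which is held in the membrane by a lipid anchor, and is activated by it in turn. The products of Spint1 and Spint2 are transmembrane Kunitz-type inhibitors that block both proteases and also inhibit the hepatocyte growth factor activator. In people, loss of either EPCAM or SPINT2 causes a congenital failure of the gut epithelium.

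By marker signals the labels held in the main. All 7 tested epithelial markers fell in the mean of the M lines, where 14.5% of all genes fell and 7.34% rose. Among them, Ocln and Rab25 had M line means of at most 9.3 and 7.45. These passed the filter on low values only with the E arrays and had to differ, so nothing is read from the count of 7. Krt8, a simple epithelial keratin singled out after its values were seen, kept signals of 7947 in M2, 5529 in M3 and 4538 in M4 (7959 in E, 57.0 in M1). Of 6 mesenchymal markers 5 rose, and the other, Vim, had a signal of 9644 in E already. Among those that rose, Cdh2, S100a4 and Col1a1 had E means of 7.65, 9.95 and 3.05. These passed the filter only with the M arrays, so nothing is read from the count of 5. Markers of leukocytes, endothelium and adipocytes had line means of at most 133, 50.4 and 9.3. A line's lower signal can come from fewer cells that express a gene or from less RNA per cell, and these cannot be told apart here. Array signal also differed: the trimmed mean ran from 181 on M4 replicate 1 to 299 on E replicate 1, and the median gene changed by -0.21 on the log2 scale between E and the mean of the M lines (0.04 after quantile normalization).

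Of the 5 genes, Epcam, Spint1 and Spint2 were matched in the RefSeq promoter table, and St14 and Prss8 are named only. The sequence before the start is shown because the Zeb and Snail repressors, whose levels are given further on, bind the E-box CACCTG, which reads as CAGGTG where it lies on the opposite strand. The 250 bases before each start are given 5′ to 3′ on the gene's own strand, from RefSeq on GRCm38.p6: Epcam from chr17:87635729-87635978 (plus strand), Spint2 from chr7:29281978-29282227 (minus strand) and Spint1 from chr2:119237110-119237359 (plus strand). Capitals mark the E-boxes.
Epcam: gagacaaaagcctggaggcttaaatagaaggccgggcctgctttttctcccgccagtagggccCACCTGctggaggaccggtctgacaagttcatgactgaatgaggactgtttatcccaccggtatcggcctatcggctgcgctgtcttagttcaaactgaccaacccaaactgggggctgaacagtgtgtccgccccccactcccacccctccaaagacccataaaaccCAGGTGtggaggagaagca
Spint2: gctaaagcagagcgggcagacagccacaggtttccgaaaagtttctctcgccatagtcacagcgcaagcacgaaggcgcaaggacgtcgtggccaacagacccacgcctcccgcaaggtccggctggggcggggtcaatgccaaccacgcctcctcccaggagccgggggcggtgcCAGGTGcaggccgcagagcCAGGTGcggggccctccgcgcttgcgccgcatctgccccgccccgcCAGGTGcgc
Spint1: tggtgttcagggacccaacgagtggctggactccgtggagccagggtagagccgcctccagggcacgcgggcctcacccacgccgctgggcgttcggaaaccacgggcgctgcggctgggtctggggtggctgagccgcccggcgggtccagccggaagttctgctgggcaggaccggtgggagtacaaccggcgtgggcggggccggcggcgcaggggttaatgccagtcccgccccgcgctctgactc

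The Epcam window held 2 E-boxes, whose first letters lay 187 and 19 bases before the start. The Spint2 window held 3, at 74, 55 and 9 bases, and the Spint1 window 0. Of 32817 promoter windows of the same length, 17.2% held at least 1 E-box, 2.07% at least 2 and 0.247% at least 3. The GC box GGGCGG, read on both strands, occurred 1 time before Epcam and 3 times before each of Spint1 and Spint2. Of all windows 32.7% held at least 1 GC box and 8.47% at least 3. The palindrome AACNNGTT, a form bound by Grainyhead-like factors, was found in none of the 3 windows and in 3.64% of all. No match of 1 motif overlapped a match of another. The GC content was 56.4% for Epcam, 69.6% for Spint2 and 72.8% for Spint1, against a median of 52.4%. A match is a description of the letters and was not tested for binding.

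**Figure D1:**
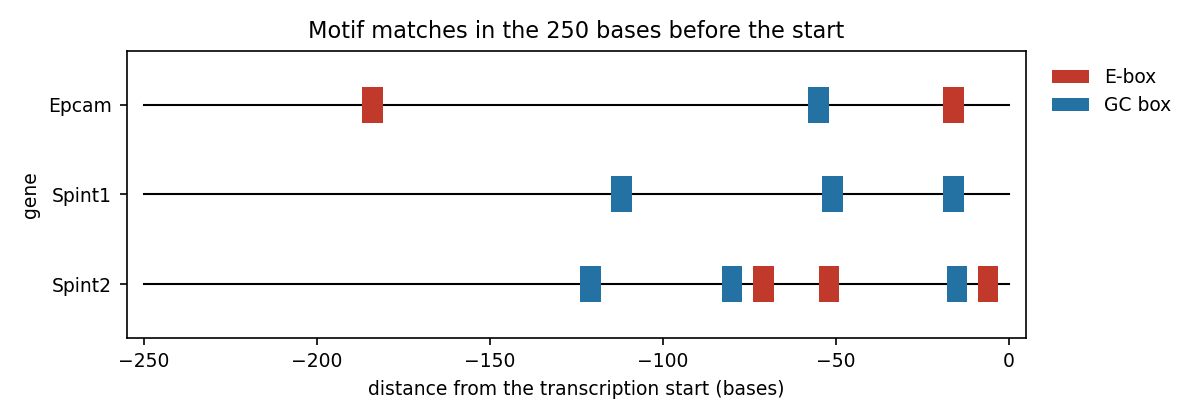
Positions of E-boxes (red) and GC boxes (blue), on either strand, in the 250 bases before the RefSeq transcription start of Epcam, Spint1 and Spint2; the horizontal axis is the distance from the start in bases. Epcam has 2 E-boxes, Spint2 has 3 and Spint1 has 0.

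All values below are deposited signals in intensity units, or log2 changes computed from log2(signal + 32), which understate the change of genes with low signals. A gene was called when limma's Benjamini-Hochberg adjusted p over 14840 genes was under 0.05 and the change at least 2-fold; the words rose and fell are kept for such calls. The first question was how far each member dropped between the epithelial line and the relapsed lines.

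Epcam was among the strongest signals of line E and lay near the bottom of the scale in every M line. Its brighter probe set, 1416579_a_at, read 10675 and 10046 on the E arrays. It read 4.2 and 2.9 in M1, 2.3 and 4.5 in M2, 2.1 and 4.2 in M3, and 2.8 and 1.7 in M4. The E arrays stood far above all 8 M arrays, and the M lines overlapped one another. Within its array the probe set ranked at percentile 99.5 to 99.6 on the E arrays and at 8.96 to 19.1 on the M arrays. The mean change was -8.21 ± 0.14 (SE). As all 8 M signals lay below percentile 40, the limit of the filter on low values, this probe set passed through the E arrays alone, and the size is set by the E signal and the pseudocount.

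The other Epcam probe set, 1447899_x_at, gave a smaller change. It read 464 and 478 on the E arrays and between 54.7 and 80.9, with a median of 70.8, on the 8 M arrays. The groups did not overlap here either, but the M lines kept 14.4% of the E signal, against 0.0298% for the brighter probe set. The M arrays ranked at percentile 60.7 to 65.9. Its change was -2.34 ± 0.13 when every kept probe set was tested on its own (limma adjusted p = 9.25e-17), a test that called 13.2% of probe sets lower. In the array maker's naming, the suffix _x_at marks probe sets some of whose probes may match other transcripts; whether that bears on the remaining signal was not tested. The size of the Epcam change thus depended on the probe set, and its direction did not.

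Spint2, the gene of a Kunitz-type inhibitor, changed nearly as much as Epcam, on both of its probe sets. The brighter, 1438968_x_at, read 7802 and 7122 in E, and on the M arrays between 0.7 (M3 replicate 2) and 7.4 (M1 replicate 1), with a median of 3.5. The other, 1451935_a_at, read 5322 and 4918 in E and between 4.3 and 24.8 on the M arrays. On each probe set both E arrays exceeded all M arrays. The M lines overlapped: M3 had the lowest mean on the first probe set (1.4 ± 0.99, SD, n = 2) but not on the second (10.7 ± 5.8, SD, n = 2), where M1 and M2 were lowest at 4.85. The changes were -7.71 ± 0.14 on the first probe set, which like that of Epcam passed the filter through the E arrays alone, and -6.99 ± 0.15 on the second.

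Spint1, the gene of the other inhibitor, fell by 5.39 ± 0.14 on the log2 scale (limma adjusted p = 1.3e-34). Its probe set 1416627_at read 2382 and 2005 in E. It read 25.1 and 25.6 in M1, 15.0 and 18.5 in M2, 24.1 and 28.0 in M3, and 9.0 and 23.6 in M4. The M4 arrays spanned almost the whole range of the M lines, so the order M3, M1, M2, M4 of the means (26, 25.4, 16.8 and 16.3) was within the spread of the replicates. The M arrays ranked at percentile 30.1 to 52.9, and 2 of 8 lay below percentile 40.

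St14, which encodes matriptase, changed by a like amount, -5.38 ± 0.14 (limma adjusted p = 1.25e-34). Its probe set 1418076_at read 2217 and 2129 in E. It read 27.3 and 24.4 in M1, 11.4 and 27.1 in M2, 16.0 and 23.8 in M3, and 19.6 and 18.9 in M4. M1 had the highest mean of the M lines, 25.8 ± 2.1 (SD, n = 2), but 1 M2 array lay as high as the M1 arrays. The protease and both inhibitors were thus low in the same 4 lines.

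Prss8, which encodes prostasin, had the smallest log2 change of the 5 genes on this scale. Its probe set 1418320_at read 426 and 388 in E, 2.0 and 5.0 in M1, 1.0 and 2.3 in M2, 2.0 and 1.1 in M3, and 10.5 and 1.1 in M4. All M arrays were far below E. The mean of M4 was the highest of the M lines only through replicate 1. The change was -3.65 ± 0.16; since the M signals lay between 1.0 and 10.5, its size was limited by the E signal and the pseudocount, and it was -5.26 with a pseudocount of 8 and -2.81 with 64.

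**Figure D2:**
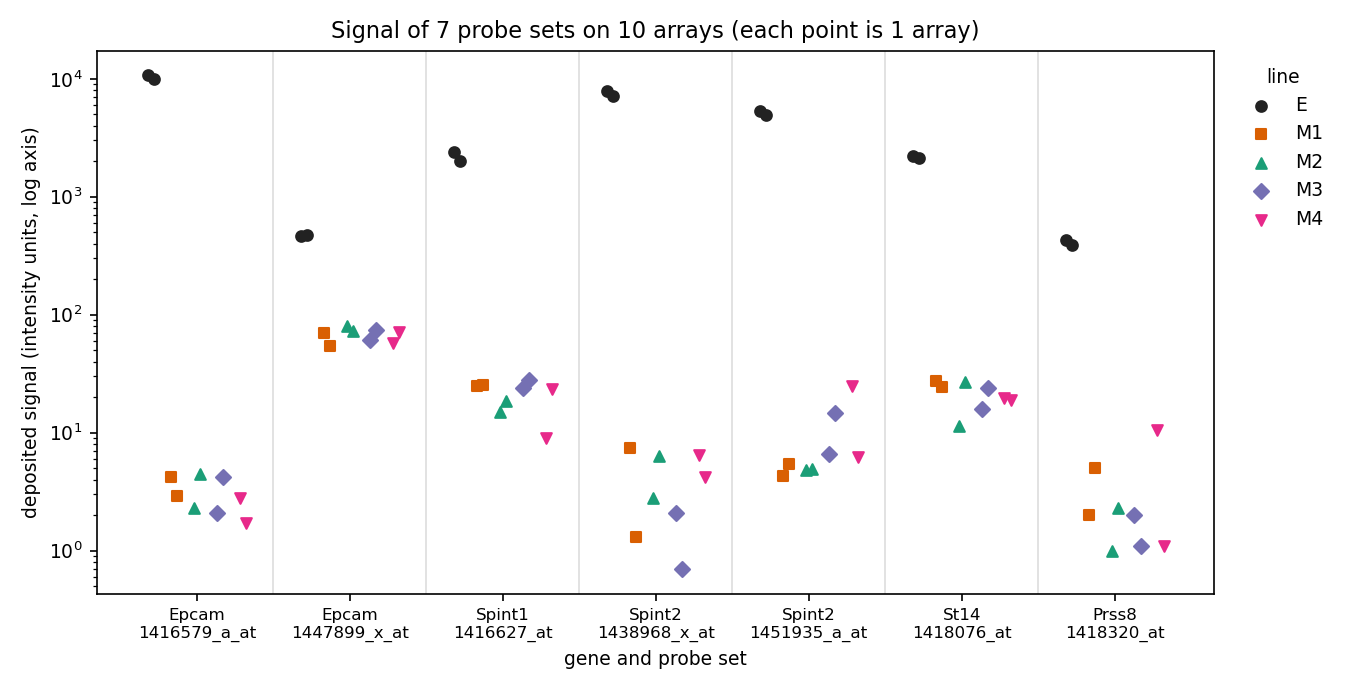
Deposited signal (vertical log axis, intensity units) of the 7 probe sets of Epcam, Spint1, Spint2, St14 and Prss8, 1 point per array, coloured by line. For each probe set the 2 E arrays lie above all 8 M arrays; the second Epcam probe set keeps signals of 54.7 to 80.9 in the M lines.

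The members were lower in each M line on its own. All 5 genes fell in the mean of the M lines, where 14.5% of all genes tested fell. They also fell in M1 (12.5% of all genes), M2 (11.8%), M3 (19.8%) and M4 (20.1%). These 4 comparisons share the E arrays. Nothing is read from the count of 5. On every M array the leading probe sets of Epcam and Spint2 and the probe set of Prss8 lay below the 40th percentile, so they passed the filter through the E arrays alone and had to differ. The changes in M1, M2, M3 and M4 were -8.19, -8.20, -8.21 and -8.24 for Epcam and -7.69, -7.68, -7.81 and -7.65 for Spint2. For Spint1 they were -5.27, -5.51, -5.26 and -5.54, and for St14 -5.25, -5.44, -5.41 and -5.43. For Prss8 they were -3.63, -3.71, -3.71 and -3.55. In a fit to the 5 line means the change was -5.39 for Spint1 and -5.38 for St14, the members whose M arrays also passed the filter. E gave a single mean in that fit, so its spread came from the M line means only. At these low signals the pseudocount of 32 compresses that spread, so no p-value of the members is read from it.

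**Figure D3:**
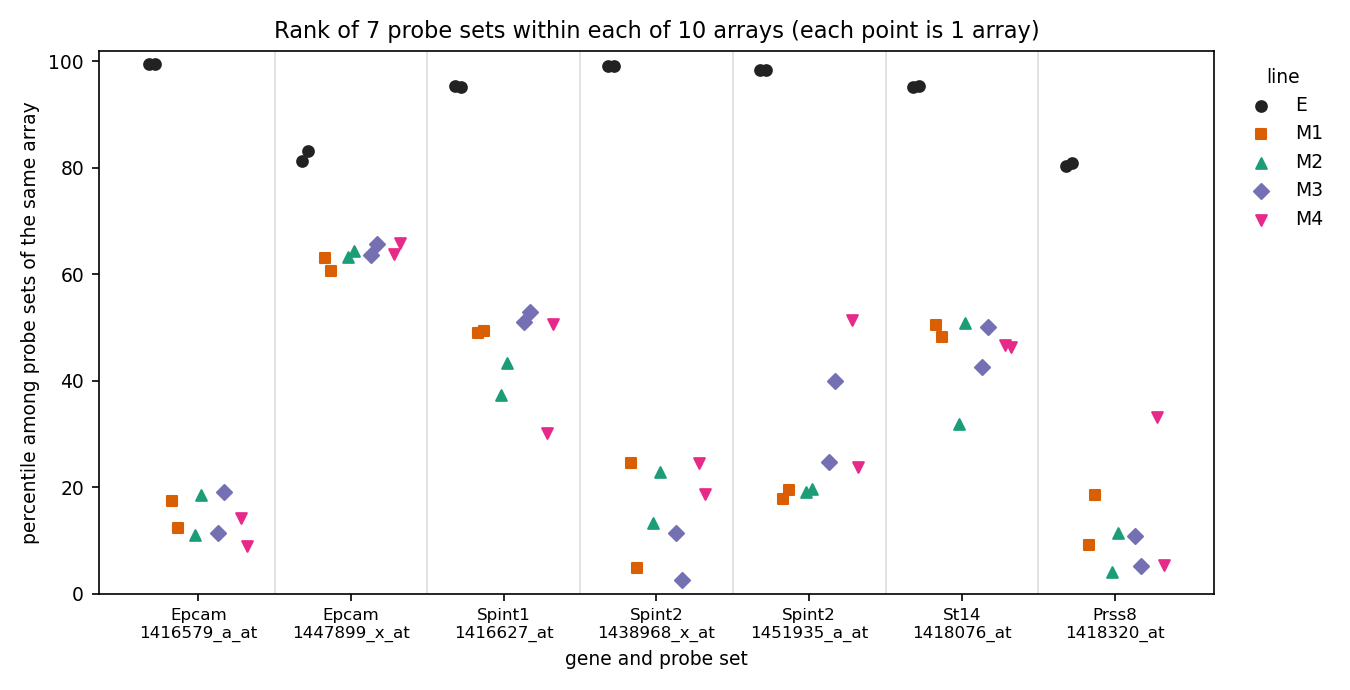
Percentile of each of the 7 probe sets among all probe sets of the same array (vertical axis), 1 point per array, coloured by line; ranks do not depend on how an array was scaled. In E the leading Epcam probe set ranks at percentile 99.5 or above, in the M lines at 19.1 or below; the second Epcam probe set stays at 60.7 or above.

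No difference between M lines was found for any member, at signals this low. Of 30 differences (5 genes, 6 pairs of lines) limma called 0, and 0 had an unadjusted p under 0.05. Over all genes, 4.54% were called between M1 and M2, 11% between M1 and M3, 8.96% between M1 and M4, 7.29% between M2 and M3, 6.32% between M2 and M4, and 10.3% between M3 and M4. The largest member difference was that of Spint1 between M3 and M4, 0.28 ± 0.18 (SE; limma adjusted p = 0.237). With a pseudocount of 8, which compresses low signals less, the same difference was 0.55 ± 0.27 (SE; limma adjusted p = 0.122) and again 0 of 30 had an unadjusted p under 0.05. With signals near the bottom of the scale these values do not show that the M lines express the members alike.

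The genes whose patterns were most like each member were found by the root mean square difference over the 10 arrays, after each gene was centred on its own mean. This distance was 0.22 between Epcam and Spint2 and 0.17 between Spint1 and St14. Epcam and Spint2 lay 0.94 to 1.14 from Spint1 and St14. Prss8 lay between 0.71 (St14) and 1.83 (Epcam) from the other members. Nearest to Epcam were Cnmd (0.119), Pglyrp1 (0.19), Gpx2 (0.222), St8sia6 (0.223) and Cd177 (0.238). Spint2 shared Gpx2 (0.125), Cnmd (0.139) and St8sia6 (0.166) with it and had the claudin genes Cldn7 (0.193) and Cldn3 (0.196). Limch1, Sntb1 and Esrp1, an epithelial splicing regulator, were among the 5 nearest of both Spint1 (0.112, 0.136 and 0.137) and St14 (0.146, 0.157 and 0.17). The others were Kit (0.173) and Emb (0.192) for Spint1, and Sftpd and Large2 (both 0.151) for St14. Wnk2 (0.081), Papln (0.113), Gjb1 (0.115), Col9a2 and Dact2 (both 0.121) were nearest to Prss8. Pearson's r over the 10 arrays was 0.997 or more for all of these, and the contrast of E with the M lines makes up most of it. Within the M arrays alone r was 0.27 for Epcam with Spint2 and 0.39 for Spint1 with St14. Over all member pairs it ran from -0.65 (Spint1 with Prss8) to 0.78 (Epcam with St14), at signals near the bottom of the scale. A small distance thus mainly reflects a like contrast with E, not a shared pattern among the M lines. As a measure of how common such patterns were, 12 genes lay within 0.5 of Epcam, 22 of Spint2, 100 of Spint1, 100 of St14 and 260 of Prss8.

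The other genes of the pathway were taken from 6 lists. For scale, 7.34% of all genes rose and 14.5% fell in the mean of the M lines, and the median of all genes was -0.21. Among the partners and cleaving enzymes of EpCAM, 2 of 11 tested genes fell and 1 rose (median -0.08). Cldn7, the claudin that binds EpCAM directly, read 6208 ± 69.7 (SD, n = 2) in E, had line means of 4.5 to 8.25 in M1 to M4, and fell by 7.35 ± 0.14; it passed the filter through the E arrays alone, so it had to differ, and it was not tested when either was left out. Cldn1, another claudin stabilised by EpCAM, fell by 2.86 ± 0.14, least in M2, which kept a signal of 199 ± 59.3 against 577 ± 44.0 in E (SD, n = 2); limma gave it an adjusted p of 0.0984 when fitted to 5 line means. Fhl2, a cofactor of the cleaved EpCAM tail, rose by 1.32 ± 0.12, and with line means as the units limma's adjusted p was 0.2. The sheddases Adam10 (-0.65) and Adam17 (-0.37), the tetraspanin gene Cd9 (-0.08) and Cd44 (0.52) were not called in the mean contrast. Of the other Cd44 probe sets 1 was called higher in that contrast (1.06). Adam10 fell in M4 taken alone (-1.09, from 3611 in E to 1672).

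Of 19 other membrane-anchored serine proteases, 17 had a probe set and 9 passed the filter; 3 fell and 0 rose (median -0.41). The changes were -3.40 ± 0.14 for Prss22, -3.32 ± 0.16 for Tmprss2 and -2.75 ± 0.17 for Tmprss4, all from signals of 232 to 680 in E to at most 46.0 in any M line. The hepsin gene Hpn, a relative of matriptase, had a change of -0.42 from a signal of 20.6 in E and was not called. Only Tpsg1 had a mean change above 0 in the limma fit, 0.02 ± 0.19, so 0 were higher at an unadjusted p under 0.05 too.

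The other genes of protease inhibitors and their relatives moved in both directions: of 7 tested, 3 fell and 2 rose (median -0.87). Slpi, a secreted leukoprotease inhibitor, rose by 3.79 ± 0.08, from 640 ± 91.9 in E to 5047 ± 42.2 in M1 and 11927 ± 101 in M3 (SD, n = 2). Tfpi, a Kunitz-type inhibitor of the coagulation pathway, rose by 3.32 ± 0.13, from 7.25 in E to 66.6 in M1, 292 in M3, 605 in M4 and 1128 in M2, and with line means as the units limma's adjusted p was 0.141. Tfpi passed the filter through the M arrays alone, and its change was 4.54 with a pseudocount of 8 and 2.62 with 64. Serpinb5, the epithelial serpin maspin, fell by 3.29 ± 0.15, with line means of 450 for E and 14 to 22 for M1 to M4. Wfdc2 split the lines. It read 287 in M1 and 288 in M4 but 2274 in M2 and 2720 in M3, against 3137 in E, so that its call rested on M1 and M4 (adjusted p = 0.445 on 5 line means, limma). App, whose longer forms hold a Kunitz domain, fell by 1.61 and was named after its value was seen. The change of App ran from -1.06 in M1 to -2.33 in M4, and its call was not kept on 5 line means. Tfpi2, Spint4 and Spink5 did not pass the filter. Aplp2, a transmembrane relative of App, had a mean change of -0.87 and was not called, but fell in M1 (-1.24) and M4 (-1.07).

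Of 14 tested substrates and receptors, 2 fell and 2 rose (median -0.06). Cdcp1, a transmembrane substrate of matriptase, fell by 5.91 ± 0.14, from 2910 ± 262 (SD, n = 2) in E to at most 25.6 in any M line. Igfbp7, also a substrate, rose by 3.26 ± 0.13, and with line means as the units limma's adjusted p was 0.0891; a second probe set of it had a change of 0.08 and was not called. Hgf, the growth factor that matriptase can activate, had signals of 13.6 in E, 26.2 in M3, 48.1 in M2, 69.9 in M1 and 324 ± 17.4 (SD, n = 2) in M4. It passed the filter through the M arrays alone. Its mean change of 1.32 ± 0.14 was called, but not without line M4 (0.77), with a pseudocount of 64 (0.96) or on 5 line means (adjusted p = 0.412, limma). Met, its receptor, had a mean change of -0.16 and was not called, but it fell in M4 (-1.13), where it read 464 ± 26.7 against 1058 ± 118 in E (SD, n = 2). Pdgfc fell by 2.17 ± 0.13 through M2 and M3 (25.0 and 49.3, against 937 in E), and read 549 in M1 and 779 in M4 (adjusted p = 0.42 on 5 line means, limma). The epithelial sodium channel genes Scnn1a, Scnn1b and Scnn1g, whose product prostasin activates, had signals of 19, 34.6 and 5.15 in E and were not called in the mean contrast; Scnn1g read 69.9 in M4 and at most 7.7 in the other M lines.

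Of the regulators of epithelial transcription and splicing 11 of 11 tested fell (median -2.82), and all 11 also fell in each of the 4 lines. With each of 3 other scalings of the arrays 10 of 11 fell. With a pseudocount of 64, or with values below 64 set to 64, 9 of 11 fell. Without E replicate 1 or 2 fewer were tested, as the filter then left out Esrp1 and Grhl3. Elf5, Esrp1, Esrp2 and Grhl3 passed the filter through the E arrays alone and had to differ, so nothing is read from the count of 11. The changes were -7.17 ± 0.14 for the Ets factor gene Elf5, -5.50 ± 0.15 for the splicing regulator gene Esrp1, -4.07 ± 0.14 for Grhl2 and -4.00 ± 0.14 for Ehf. The Elf5 value rested on 1 probe set and both E arrays: without E replicate 1 or 2 the filter left its other probe set and a change of -2.70 or -2.91, and the mean of its probe sets gave -4.99. Esrp1 was not tested without either E array. Grhl2, a Grainyhead-like factor known to sustain epithelial junction genes, had line means of 1080 ± 71.7 (SD, n = 2) for E and 25.4 to 38.4 for M1 to M4; of its 3 other probe sets, which changed by -1.10, -0.86 and -0.83, 1 was called. Klf5, named after its values were seen, kept more of its signal, 494 to 676 against 1676 in E. The 5 repressors that bind E-boxes passed the filter through the M arrays alone, so nothing is read from the count that rose. All 5 rose (median 2.27), also with each of these scalings. With a pseudocount of 64 it was 4, and with values below 64 set to 64, or with line means as the units, 3. In M3 neither Snai1 (0.35) nor Twist1 (0.80) was called; Twist1, named after its values were seen, had a mean change of 1.23 and limma's adjusted p of 0.061 on line means. Snai2 rose by 4.93 ± 0.13, Zeb1 by 4.45 ± 0.13, Zeb2 by 2.27 ± 0.15 and Snai1 by 1.53 ± 0.15. Zeb1 was highest in M1 (1369 ± 68.9) and lowest in M4 (567 ± 30.3, SD, n = 2). Snai1 read 22.6 in M3 and 297 in M1, from 10.8 in E, and its adjusted p was 0.32 on 5 line means (limma). Zeb1 and Zeb2 had further probe sets that were not called (0.97 and 0.38, and 0.07). Whether these regulators acted on the members was not tested.

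**Figure D4:**
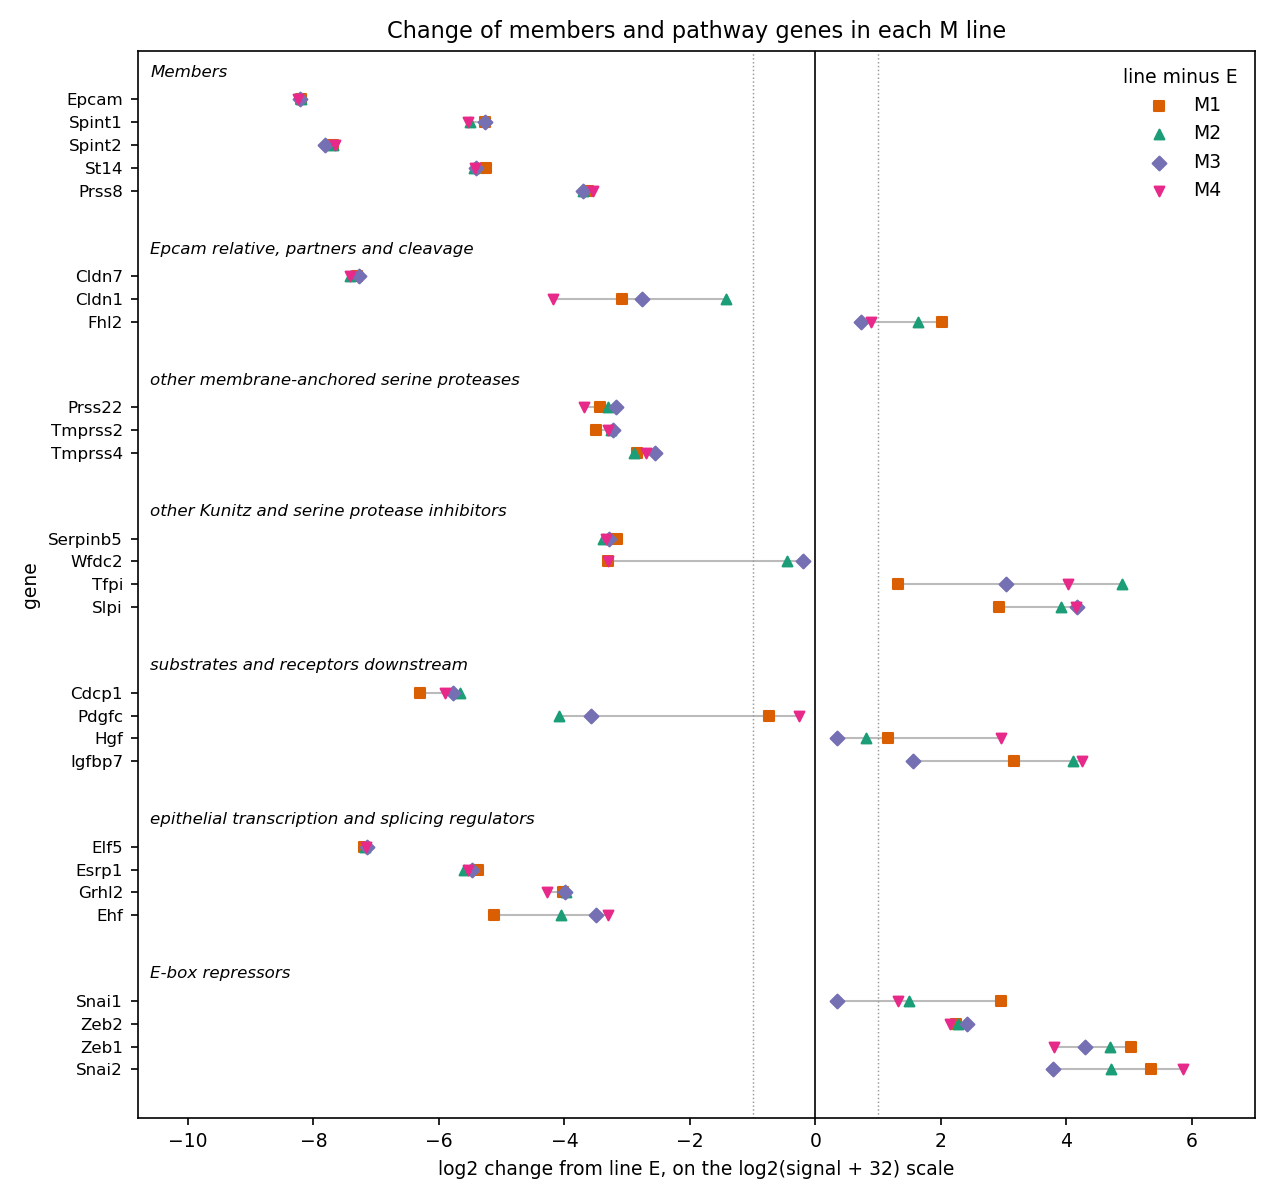
Log2 change of each M line from E, on the log2(signal + 32) scale (horizontal axis), for the 5 members and the named genes of 6 pathway lists; 1 point per line, grey bars span the 4 lines and dotted lines mark 2-fold. The members' points lie within 0.28 of each other at M signals that a pseudocount of 32 compresses, so their closeness is not a result; Wfdc2, Pdgfc, Tfpi and Snai1 differ between lines.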

How the data were processed

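Biotin-labelled cRNA of 5 lines was hybridized to 10 arrays. The authors deposited 1 intensity per probe set and array, not on a log scale. The submitters' processing notes name GCOS 1.3; how signals were computed, scaled and background-corrected is not stated there. No detection call was used. The deposited scaling was kept. Of 45101 probe sets, 64 controls were left out; 34945 had a single symbol in the platform annotation. Probe sets were kept (32978) if they exceeded percentile 40 on 2 or more arrays, and the one with the highest mean signal stood for its gene. On log2(signal + 32), limma 3.58.1 in R 4.3.3 was fitted with 1 mean per line and eBayes with a trend (5 residual and 41.4 prior degrees of freedom); M1 to M4 were compared with E singly and as their mean, and with one another in 6 pairs. The script was tested on simulated data. The number of arrays limits the precision.

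The members and gene lists were chosen with earlier results of these data known. Beside the members, the text names from each list up to 4 called genes with the largest change, and the 5 nearest genes of each member. Other genes are named for their role or after their values were seen. Alternatives were other pseudocounts, a floor of 64, other scalings, no filter, other probe set choices, a replicate block, 5 line means, and leaving out arrays or lines.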

Additional observations from a re-analysis of the deposited data

Results flagged for a closer look

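Of 22 named pathway genes, 12 differed between M lines by limma's test of the difference itself (the change of 1 M line from E against that of another, over all genes). Over all genes, 4.54% to 11% were called for a given pair of M lines. The count of 12 takes a call in any pair, so it cannot be compared with these shares. The share of all genes called in any pair was not computed. The 22 genes were also named for large changes from E in the same data, so the count of 12 is not read as an excess. The 5 members had no called difference, at M signals too low for one to be called readily. The largest called difference of each gene, on the log2 scale with the first line minus the second, follows. Pdgfc, a growth factor gene, differed by -3.83 between M2 and M4 (adjusted p = 2.43e-24), Tfpi by -3.56 between M1 and M2 (1.39e-22) and Wfdc2 by -3.11 between M1 and M3 (1.92e-23). Cldn1 differed by 2.76 between M2 and M4, Igfbp7 by -2.69 and Hgf by -2.61 between M3 and M4. Among the repressors, Snai1 differed by 2.60 between M1 and M3, Snai2 by -2.08 between M3 and M4 and Zeb1 by 1.23 between M1 and M4. Ehf differed by -1.82 between M1 and M4, Fhl2 by 1.28 and Slpi by -1.24 between M1 and M3. The causes were not tested.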

How the results depend on the processing

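The members kept their direction and their call under all alternatives that could be fitted. Their calls on 5 line means carry no weight, as E gave a single mean there and the pseudocount compressed the spread of the M means. With a pseudocount of 32, the leading probe sets and the filter from all 10 arrays, the change ran from -8.25 to -7.92 for Epcam, -7.77 to -7.42 for Spint2, -5.52 to -5.09 for Spint1, -5.44 to -5.08 for St14 and -3.71 to -3.31 for Prss8. Sizes depended on the pseudocount: with 8 they were -9.87, -9.32, -6.27, -6.25 and -5.26, and with values below 64 set to 64 they were -7.34, -6.86, -5.09, -5.08 and -2.67, in the same order. Epcam depended most on the probe set: -5.27 with the mean of its probe sets, and -2.34 with the probe set of highest mean log2 value, an alternative chosen after seeing the data. Without an E array the filter removed the leading Epcam probe set, leaving -2.36 (without replicate 1) or -2.32 (without replicate 2), and Prss8 was not tested; with the filter taken from all 10 arrays, chosen after seeing the data, Epcam was at -8.17 and -8.25 and Prss8 at -3.59 and -3.71. No member difference between M lines was called in any of 23 settings that tested it. On 5 line means 4 listed genes rose, against 10, and 8 of the 22 named pathway genes lost their call. With values below 64 set to 64, Snai1 (0.72) and Hgf (0.62) were not called. With other scalings 20 listed genes fell and 11 rose, against 21 and 10. With the replicate block the counts stayed at 21 lower and 10 higher listed genes. Deviations of same-numbered arrays of different lines correlated at -0.0574 to 0.0458, so no large shared deviation was seen. Whether same-numbered arrays were handled together is not given by the labels and cannot be settled by these correlations.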
